A study of Mus musculus with 48 samples.

Results

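A set of 10 integrin genes of the vessel wall was followed through 3 mouse knockout models of elastic fibre assembly: Itga1, Itga5, Itga7, Itga8, Itga9, Itga11, Itgb1, Itgb3, Itgb5 and Itgbl1. They are named receptors for collagen, fibronectin and laminin together with 1 integrin-like gene. No measured value entered the rule, but the list was drawn up with earlier results of these data known. They are 10 of the 22180 genes with a probe set of their own, each had 1 such probe set, and all 10 passed the filter on low values that left 15337 genes for testing. RNA was measured on 48 arrays of mouse aorta, in knockout (KO) and wild type (WT) of an Eln, an Efemp2 and a Lox model. Ascending aorta (AA) and descending aorta (DA) were taken on embryonic day 17.5 (E17.5) and on postnatal day 1 (P1). Each of the 24 groups held 2 arrays. The Eln and Efemp2 groups, WT and KO, came from C57BL/6 mice, and the Lox groups, WT and KO, from B6 albino mice. Each array held RNA of 8 pooled aortas, so animals within a pool could not be told apart. Nothing in the labels says how the alleles were made, and they name no treatment and no second allele for any group. No text says that the pools of a group came from separate litters, so the p-values measure the spread between these arrays, which may in part be technical.

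Integrins are cell surface receptors made of an alpha and a beta chain. They hold a cell to the matrix around it and link that matrix, through talin, kindlin and other adaptors, to the actin cytoskeleton. The beta chain Itgb1 pairs with the alpha chains Itga1 and Itga11 to bind collagens, with Itga5 to bind fibronectin, with Itga8 to bind nephronectin and fibronectin, with Itga9 to bind tenascin-C and osteopontin, and with Itga7 to bind laminins. The beta chains Itgb3 and Itgb5 pair with Itgav to bind vitronectin and other matrix proteins. Itgbl1 codes for a secreted protein with the repeats of a beta chain, and not for a receptor subunit. In the aorta, smooth muscle cells lie between sheets of elastin, which Eln encodes, Efemp2 (fibulin-4) helps to assemble and Lox (lysyl oxidase) cross-links.

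Values are log2 array signals as the authors deposited them, an effect is the log2 difference KO less WT and the 4 arrays of 1 model, location and stage form a pair of groups. The error after a difference is its standard error (SE) from the limma fit, and a gene is said to have risen or fallen where the adjusted p over all 15337 tested genes was under 0.05. The number of arrays limits the precision. Replicate arrays correlated over tested genes with a median r of 0.970 and a lowest of 0.875. Array medians ran from 3.71 to 5.35. Group means of Eln lay at 4.46 to 5.44 in the Eln KO and at 10.43 to 11.90 in its WT, and those of Lox at 7.10 to 8.59 in the Lox KO and at 9.56 to 11.45 in its WT. No probe set of its own carried the name Efemp2, so that deletion was not checked. The tissue label was checked on smooth muscle markers: group means of Acta2 lay between 10.93 and 12.62 and those of Myh11 between 8.80 and 10.98 in all 24 groups. Both WT arrays of Eln DA P1 and replicate 2 of the Efemp2 WT AA P1 and WT DA P1 groups had a raised background, where probe sets that carry no gene name had medians of 4.35 to 4.37, against at most 4.14 in the other 12 P1 arrays of these models. Averages that rest on these arrays are also given without the 4 of them. No WT array of Eln DA P1 is then left, so the single effects of that pair and the Eln stage and location differences rest on raised-background arrays and have no value without them. The 4 Lox KO arrays of P1 had medians between 4.85 and 5.19, and the 4 WT arrays between 5.21 and 5.35. The RNA came from whole tissue, so fewer cells of a type and less RNA per cell cannot be told apart.

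Promoters of Itga11 and Itgbl1, the members that rose in all 3 models, are shown because the KO mean of both genes was the higher in 12 of 12 pairs. The sequences are the 250 bases before the start of each gene from RefSeq (GRCm38.p6), plus strand, read 5′ to 3′.
Itga11 (chr9:62677605-62677854): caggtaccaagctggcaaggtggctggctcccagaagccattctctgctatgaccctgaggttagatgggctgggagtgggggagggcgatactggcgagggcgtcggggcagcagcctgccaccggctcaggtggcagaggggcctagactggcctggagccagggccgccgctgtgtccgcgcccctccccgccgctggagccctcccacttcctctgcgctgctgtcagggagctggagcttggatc
Itgbl1 (chr14:123659890-123660139): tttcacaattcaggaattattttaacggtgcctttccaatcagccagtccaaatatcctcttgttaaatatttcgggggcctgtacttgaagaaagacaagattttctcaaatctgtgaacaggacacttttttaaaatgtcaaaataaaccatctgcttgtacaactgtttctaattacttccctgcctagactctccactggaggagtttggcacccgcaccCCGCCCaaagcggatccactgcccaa
Capitals mark a match to one of the motifs searched on both strands, here CCGCCC, the reverse complement of the SP motif GGGCGG. The GC content was 68.4% for Itga11 and 42.4% for Itgbl1, against a median of 52.4% over 32851 RefSeq promoters. RefSeq entries matched 8 of the 10 members. The SP motif was in 32.7% of all promoters and in those of Itga5, Itgb1, Itgb5 and Itgbl1. The TEAD motif GGAATG was in 12.6% of all promoters and in that of Itgb1, and the SMAD motif CAGAC in 42.2% and in those of Itga1 and Itgb1. The CArG box, the serum response factor motif, was in 1.47% of all promoters and in no member's. A match describes letters in this window only.

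Averaged over the 4 pairs of a model, 8 of the 10 integrin genes rose in the Eln KO, 4 in the Efemp2 KO and 2 in the Lox KO, and none fell. Over all tested genes, 2.74% rose in the Eln KO, 3.14% in the Efemp2 KO and 0.561% in the Lox KO. The split of genes that rose and fell moved with the scaling: 421 and 83 in Eln, 482 and 102 in Efemp2 and 86 and 154 in Lox as deposited, and 243 and 140, 341 and 208, and 137 and 72 with cyclic loess. The members' median effect was 0.60 against 0.055 over all tested genes in Eln, 0.32 against 0.037 in Efemp2 and 0.20 against -0.088 in Lox. Itga11 and Itgbl1 rose in all 3 models, Itga1 and Itga5 in Eln and Efemp2, and Itga8, Itga9, Itgb3 and Itgb5 in Eln. Itga7 and Itgb1 passed the test in no averaged comparison. With array background as a covariate, or without the 4 arrays of raised background, 5 members passed in Eln instead of 8. Itgbl1, Itga11, Itgb5 and Itga9 passed in Eln under both of those settings.

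**Figure D1:**
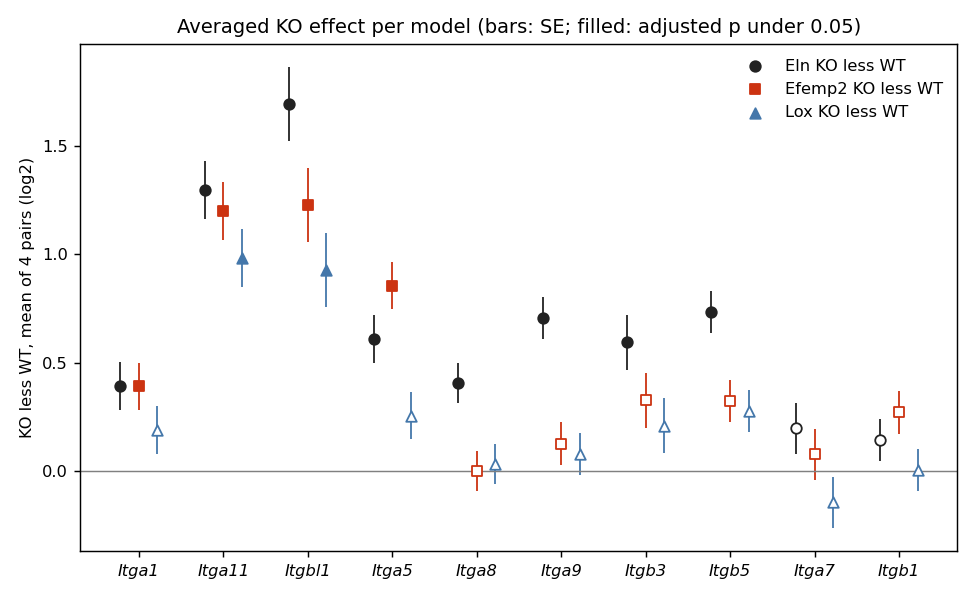
Averaged KO less WT (log2 difference, vertical axis) of each of the 10 genes (horizontal axis) in the Eln (circles), Efemp2 (squares) and Lox (triangles) models; bars are SE from limma, and filled symbols passed an adjusted p of 0.05. Itga11 and Itgbl1 are filled in all 3 models, from 0.93 to 1.69, and Itga9 lies at 0.71 in Eln and at 0.13 and 0.078 in Efemp2 and Lox.

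Among the collagen receptor chains, Itga11 rose in each model. It encodes the alpha chain of a receptor for fibrillar collagens that is found on fibroblasts and other mesenchymal cells. Averaged effects were 1.30 ± 0.13 in Eln (adjusted p = 1.2e-07), 1.20 ± 0.13 in Efemp2 (adjusted p = 8.2e-07) and 0.98 ± 0.13 in Lox (adjusted p = 3.6e-05). KO group means exceeded WT in 12 of 12 pairs. In the Eln model at E17.5, AA arrays read 5.25 and 5.65 in WT and 5.98 and 6.79 in KO. Its DA arrays at E17.5 read 6.19 and 6.33 in WT and 7.63 and 7.75 in KO. Both KO arrays lay above both WT arrays at each site. At P1 the Eln AA arrays read 4.84 and 4.81 in WT and 5.80 and 6.28 in KO. The Eln DA arrays at P1 read 5.68 and 5.74 in WT and 7.18 and 7.47 in KO. The 4 Eln effects were 0.94, 1.43, 1.22 and 1.61, each ± 0.27. The first did not pass in its own pair (adjusted p = 0.39) and the others did. The Eln average over the 3 pairs left without the 4 arrays of raised background was 1.20 (adjusted p = 2.0e-06).

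In the Efemp2 model Itga11 differed more at P1 than at E17.5. At E17.5 its AA arrays read 5.39 and 5.28 in WT and 6.20 and 6.09 in KO. The DA arrays at E17.5 read 6.86 and 6.71 in WT and 6.80 and 7.09 in KO. There 1 KO array lay below 1 WT array, and the effect of 0.16 did not pass. At P1 the AA arrays read 3.95 and 5.08 in WT and 6.67 and 6.49 in KO. The lower of these WT values, replicate 1, lay below that array's own median of probe sets without a name (4.07), the only one of 48 arrays where Itga11 did. The effect and the stage difference below rest in part on it. The higher is replicate 2, of raised background, and lay 0.71 above that array's median of probe sets without a name. Other WT AA arrays of Itga11 were also close to theirs. They lay 0.56 above it in Lox E17.5 replicate 1, 0.89 and 1.06 in Lox P1, and 0.96 and 0.97 in Eln P1. The P1 DA arrays read 5.48 and 5.34 in WT and 7.24 and 7.10 in KO. Effects at P1 were 2.07 in AA and 1.76 in DA (adjusted p = 2.2e-05 and 4.3e-04), and the groups did not overlap. The AA effect was 1.50 without WT replicate 1 (adjusted p = 0.0023) and 2.63 (adjusted p = 2.7e-06) without the 4 arrays of raised background. Leaving those 4 out, the DA effect was 1.70 (adjusted p = 0.0039) and the Efemp2 average 1.32 (adjusted p = 2.3e-07). The effect at P1 less that at E17.5 was 1.43 ± 0.27 (adjusted p = 0.016), or 1.32 less the median of all genes. It was 1.15 without WT AA P1 replicate 1 (adjusted p = 0.014) and 1.68 (adjusted p = 0.0029) without the 4 arrays of raised background. The call was lost with cyclic loess (1.23, adjusted p = 0.082) and without replicate 1 of the Efemp2 KO DA E17.5 group (1.36, adjusted p = 0.071).

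In the Lox model the Itga11 values moved over a wide range between stages, in KO and WT alike, and the stages may have been normalized apart. At E17.5 the AA arrays read 3.83 and 4.17 in WT and 5.11 and 4.68 in KO, and the DA arrays read 4.77 and 5.41 in WT and 5.44 and 5.77 in KO. At P1 the AA arrays read 5.73 and 5.58 in WT and 6.76 and 6.93 in KO, and the DA arrays read 6.71 and 6.77 in WT and 8.22 and 7.92 in KO. All 4 pairs had both KO arrays above both WT arrays. Only the P1 pairs passed on their own, with effects of 1.19 and 1.33, or 1.39 and 1.50 less the median of all genes. Leaving out any 1 of the 4 arrays of a Lox P1 pair lost that pair's call. The difference of the effect between P1 and E17.5 did not pass (adjusted p = 0.43).

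**Figure D2:**
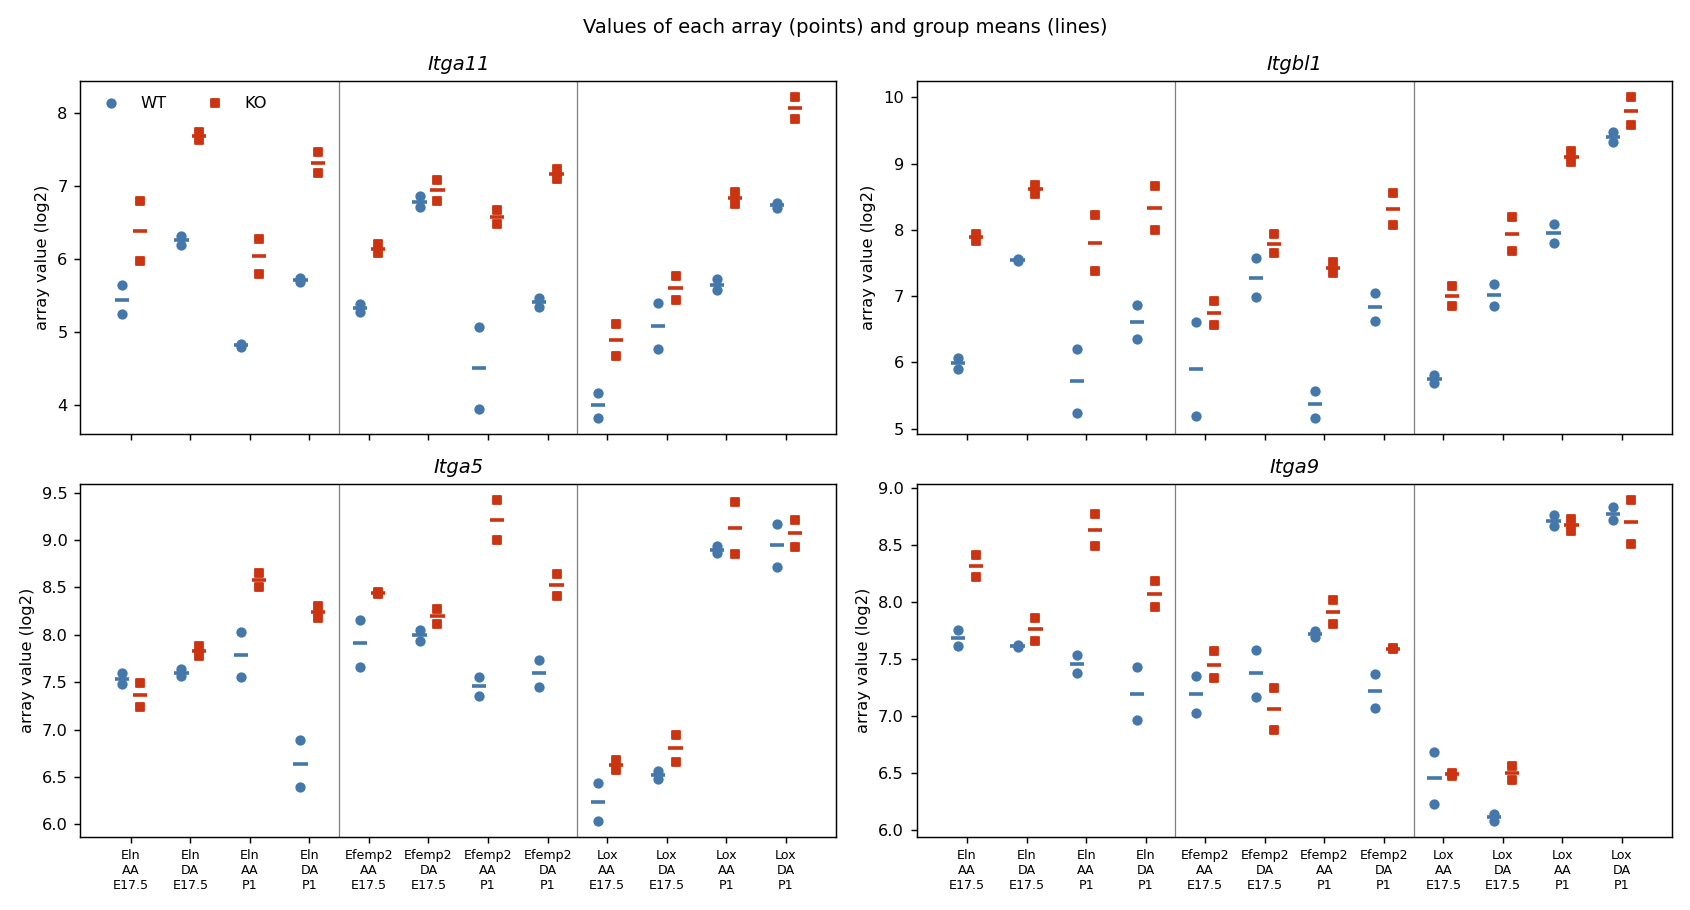
Log2 value of every array (vertical axis) for Itga11, Itgbl1, Itga5 and Itga9 in each model, location and stage (horizontal axis); blue circles are WT, red squares KO, and short lines the means of the 2 arrays. KO squares of Itga11 and Itgbl1 have the higher mean in 12 of 12 pairs, while for Itga5 the means separate most at P1 in Eln and Efemp2.

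Itgbl1, the secreted integrin-like gene, rose in each model as well. Averaged effects were 1.69 ± 0.17 in Eln (adjusted p = 7.3e-08), 1.23 ± 0.17 in Efemp2 (adjusted p = 2.0e-05) and 0.93 ± 0.17 in Lox (adjusted p = 0.0022). The KO mean was higher in 12 of 12 pairs. The Eln AA arrays at E17.5 read 5.91 and 6.06 in WT and 7.84 and 7.94 in KO. The Eln DA arrays at E17.5 read 7.56 and 7.53 in WT and 8.67 and 8.55 in KO. KO and WT arrays were well apart at both sites, with gaps between replicates of at most 0.15. The Eln AA arrays at P1 read 6.20 and 5.23 in WT and 7.38 and 8.22 in KO. The Eln DA arrays at P1 read 6.86 and 6.35 in WT and 7.99 and 8.66 in KO. Replicates lay farther apart at P1, and still no WT array reached a KO array. Effects were 1.91, 1.06, 2.08 and 1.72, each ± 0.34, of which the second did not pass (adjusted p = 0.99). The Eln average over the 3 pairs left without the 4 arrays of raised background was 1.68 (adjusted p = 3.3e-06).

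In the Efemp2 model the WT replicates of Itgbl1 in AA at E17.5 were 1.41 apart. That pair read 6.60 and 5.19 in WT and 6.93 and 6.56 in KO, and the upper WT array lay just above the lower KO array. The DA pair at E17.5 read 7.57 and 6.99 in WT and 7.94 and 7.65 in KO. Neither E17.5 effect passed, at 0.85 and 0.52. The AA pair at P1 read 5.16 and 5.57 in WT and 7.35 and 7.51 in KO. The DA pair at P1 read 7.04 and 6.62 in WT and 8.07 and 8.56 in KO. Both P1 effects passed, at 2.06 and 1.48 (adjusted p = 6.4e-04 and 0.021). Without the 4 arrays of raised background the Efemp2 average was 1.23 (adjusted p = 2.0e-04) and the P1 AA effect 2.27 (adjusted p = 0.0014). The P1 DA effect was then 1.27 (adjusted p = 0.19), and 5 other alternatives also lost that call, among them cyclic loess (1.21, adjusted p = 0.075). The stage difference of 1.09 ± 0.34 did not pass (adjusted p = 0.097).

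In the Lox model the AA arrays of Itgbl1 at E17.5 read 5.69 and 5.81 in WT and 6.85 and 7.16 in KO. The DA arrays at E17.5 read 7.18 and 6.85 in WT and 8.20 and 7.68 in KO. The P1 arrays read 7.80 and 8.09 in WT and 9.19 and 9.02 in KO for AA. KO lay above WT on every array of these 3 pairs. The P1 DA arrays, at 9.48 and 9.33 in WT and 10.004 and 9.58 in KO, were also apart, by a smaller step. Effects were 1.25, 0.92, 1.16 and 0.39 in that order, and none passed in its own pair, although the average did.

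Itga1, the other collagen receptor chain, which in vessels is carried by smooth muscle and endothelial cells, changed less. Over the 8 arrays of a genotype, the lowest, median and highest values were 6.42, 6.86 and 7.49 in WT and 6.90, 7.26 and 7.69 in KO of the Eln model. They were 5.91, 7.03 and 7.87 in WT and 7.13, 7.41 and 8.06 in KO of the Efemp2 model. They were 6.39, 7.60 and 8.98 in WT and 6.66, 7.71 and 9.27 in KO of the Lox model. WT and KO ranges overlapped in each model. The averaged effect was 0.39 ± 0.11 in Eln and 0.39 ± 0.11 in Efemp2, just past the threshold in both (adjusted p = 0.041 and 0.039). In Lox it was 0.19 ± 0.11 (adjusted p = 0.43). The Eln and Efemp2 calls were each lost when any of 12 of the 16 arrays of the model was left out, and under 5 of 8 other settings. Adjusted p ran from 0.022 to 0.35 over those settings in Eln and from 5.3e-04 to 0.31 in Efemp2.

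Itga5, the alpha chain of the main fibronectin receptor, rose in Eln and Efemp2, chiefly through the P1 arrays. Averaged effects were 0.61 ± 0.11 in Eln (adjusted p = 6.9e-04, higher in 3 of 4 pairs), 0.86 ± 0.11 in Efemp2 (adjusted p = 5.9e-06, 4 of 4, and 0.80 with adjusted p = 1.2e-04 without the 4 arrays of raised background) and 0.26 ± 0.11 in Lox (adjusted p = 0.26, 4 of 4). Eln AA at E17.5 read 7.48 and 7.60 in WT and 7.24 and 7.49 in KO. Eln DA at E17.5 read 7.64 and 7.56 in WT and 7.77 and 7.88 in KO. The KO arrays overlapped WT in the first pair and were close in the second. Eln AA at P1 read 8.03 and 7.55 in WT and 8.50 and 8.65 in KO. Eln DA at P1 read 6.39 and 6.89 in WT and 8.17 and 8.30 in KO. The last pair, with the largest Eln effect of 1.60 (1.33 less the median of all genes), is the pair whose WT arrays both had raised background. Without the 4 arrays of raised background the Eln average, over the other 3 pairs, was 0.28 (adjusted p = 0.38).

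For the Efemp2 model, Itga5 in AA at E17.5 read 7.66 and 8.15 in WT and 8.45 and 8.43 in KO. In DA at E17.5 it read 7.94 and 8.05 in WT and 8.27 and 8.12 in KO. KO arrays were above WT at both sites, by less than the P1 difference. In AA at P1 it read 7.56 and 7.35 in WT and 9.0 and 9.42 in KO. In DA at P1 it read 7.73 and 7.45 in WT and 8.64 and 8.41 in KO. Both P1 pairs passed, with effects of 1.76 and 0.93, each ± 0.22. The AA call held under all alternatives run, and the DA call was lost without the 4 arrays of raised background (0.80, adjusted p = 0.18), with cyclic loess (0.66, adjusted p = 0.11), with the background covariate (0.74, adjusted p = 0.11), with Efemp2 arrays alone (adjusted p = 0.19) and without any of 3 of its 4 arrays.

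In Lox the arrays of Itga5 read 6.04 and 6.43 in WT and 6.57 and 6.68 in KO for AA at E17.5. They read 6.47 and 6.57 in WT and 6.66 and 6.95 in KO for DA at E17.5. They read 8.93 and 8.86 in WT and 8.85 and 9.40 in KO for AA at P1 and 9.17 and 8.72 in WT and 9.21 and 8.93 in KO for DA at P1. KO and WT overlapped in both P1 pairs, and no Lox pair passed. The Lox effect less the Efemp2 effect was -0.60 ± 0.16, with a 95% interval of -0.92 to -0.28 and an adjusted p of 0.16.

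On the values as deposited, the effect on Itga5 was larger at P1 than at E17.5 in the Eln and Efemp2 models. The Eln difference rests in part on the DA P1 pair, whose WT arrays both had raised background, and has no value without them. The stage difference was 1.17 ± 0.22 in Eln (adjusted p = 0.017), or 1.03 less the median of all genes. In Efemp2 it was 0.98 ± 0.22 (adjusted p = 0.031), or 0.88 less the median. In Lox it was -0.16 ± 0.22 (adjusted p = 0.80). The Eln call was lost with cyclic loess (0.85, adjusted p = 0.093), with the background covariate (0.80, adjusted p = 0.45), without replicate 2 of Eln WT AA E17.5 (1.14, adjusted p = 0.052) and without replicate 1 of Eln KO AA E17.5 (1.10, adjusted p = 0.055). The Efemp2 call was lost with cyclic loess (0.64, adjusted p = 0.18), without the 4 arrays of raised background (0.86, adjusted p = 0.071) and in 8 of the 16 fits that left out 1 array.

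Itga8, an alpha chain typical of smooth muscle, rose in Eln and did not pass the test in the other models. The lowest, median and highest of 8 arrays were 9.51, 9.99 and 10.17 in WT and 9.84, 10.29 and 10.89 in KO for Eln. They were 9.57, 10.04 and 10.24 in WT and 9.57, 10.04 and 10.26 in KO for Efemp2. They were 9.01, 10.50 and 11.70 in WT and 9.44, 10.48 and 11.65 in KO for Lox. In Eln the averaged effect was 0.41 ± 0.092 (adjusted p = 0.0079), and in Efemp2 and Lox it was 0.0012 ± 0.092 and 0.030 ± 0.092 (adjusted p = 1.00 and 0.91). Over the 3 Eln pairs left without the 4 arrays of raised background it was 0.40 (adjusted p = 0.03). With cyclic loess the Efemp2 value turned to -0.13. Most of the Eln effect came from AA at P1, where the arrays read 9.96 and 9.75 in WT and 10.75 and 10.89 in KO, an effect of 0.96 (adjusted p = 0.0043). That call was lost without replicate 2 of either group of the pair (0.86 and 0.90, adjusted p = 0.060 and 0.056). With the background covariate the averaged Eln effect was 0.29 (adjusted p = 0.20). In Eln AA P1 the median effect of the smooth muscle markers, less that of all genes, was 0.44. It was 0.14 in Eln AA E17.5, -0.076 in DA E17.5 and 0.12 in DA P1. Of the other marker lists in Eln AA P1, neuron and Schwann cell (0.20) and cartilage (0.28) lay above 0. The rest lay below, down to -1.50 in brown fat. The part of these cells in the Itga8 effect was not tested. The difference of effects did not pass between Efemp2 and Eln (-0.40 ± 0.13, adjusted p = 0.22) or between Lox and Eln (-0.38 ± 0.13, adjusted p = 0.19).

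Itga9, the alpha chain of a tenascin-C and osteopontin receptor, had an effect in Eln that differed from those in both other models. The averaged effect was 0.71 ± 0.098 in Eln (adjusted p = 1.5e-05), 0.13 ± 0.098 in Efemp2 (adjusted p = 0.57) and 0.078 ± 0.098 in Lox (adjusted p = 0.75). Eln AA at E17.5 read 7.62 and 7.75 in WT and 8.22 and 8.42 in KO. Eln DA at E17.5 read 7.61 and 7.62 in WT and 7.86 and 7.66 in KO. KO lay above WT in both, by a wider gap in AA. Eln AA at P1 read 7.38 and 7.53 in WT and 8.77 and 8.49 in KO. Eln DA at P1 read 6.96 and 7.43 in WT and 8.18 and 7.96 in KO. All 4 Eln pairs were free of overlap, with effects of 0.63, 0.15, 1.18 and 0.87, each ± 0.20. The Eln average over the 3 pairs left without the 4 arrays of raised background was 0.65 (adjusted p = 4.7e-04).

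In the Efemp2 model Itga9 in AA read 7.03 and 7.36 in WT and 7.33 and 7.57 in KO at E17.5. At P1 the AA values were 7.75 and 7.69 in WT and 7.81 and 8.02 in KO. In DA it read 7.58 and 7.17 in WT and 6.88 and 7.24 in KO at E17.5, and at P1 7.37 and 7.07 in WT and 7.60 and 7.59 in KO. KO and WT overlapped at both sites at E17.5 and not at P1, and no pair passed. In the Lox model the arrays read 6.68 and 6.23 in WT and 6.50 and 6.48 in KO in AA at E17.5. They read 6.08 and 6.14 in WT and 6.56 and 6.44 in KO in DA at E17.5. They read 8.67 and 8.76 in WT and 8.73 and 8.62 in KO in AA at P1 and 8.83 and 8.72 in WT and 8.90 and 8.51 in KO in DA at P1. KO and WT overlapped in 3 of these 4 pairs. The Efemp2 effect less the Eln effect was -0.58 ± 0.14 (adjusted p = 0.044), and the Lox effect less the Eln effect was -0.63 ± 0.14 (adjusted p = 0.029), or -0.49 less the median of all genes.

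Both of these differences in Itga9 stood close to the threshold. In the second, which sets Lox against Eln, model and strain cannot be told apart. The first was lost without the 4 arrays of raised background (-0.57, adjusted p = 0.079), with cyclic loess (-0.58, adjusted p = 0.061), with no filter (adjusted p = 0.063), with the fixed replicate block (adjusted p = 0.071) and in 22 of the 32 fits that left out 1 array. The second was lost without those 4 arrays (-0.57, adjusted p = 0.098), with cyclic loess (-0.47, adjusted p = 0.26) and in 13 of 32 such fits. Over all settings their adjusted p ran from 0.017 to 0.10 and from 0.012 to 0.26.

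Itgb3 and Itgb5, the beta chains that join Itgav, rose in Eln. For Itgb3 the lowest, median and highest of 8 Eln arrays were 6.17, 7.61 and 7.70 in WT and 7.49, 7.85 and 8.12 in KO. For Itgb5 they were 7.70, 8.66 and 9.18 in WT and 8.83, 9.27 and 9.71 in KO. The WT and KO ranges overlapped for both genes, across locations and stages. The averaged Eln effect was 0.59 ± 0.13 for Itgb3 (adjusted p = 0.0043) and 0.74 ± 0.097 for Itgb5 (adjusted p = 8.3e-06), positive in 4 of 4 pairs for each. Itgb5 had effects of 0.52 and 0.60 at E17.5 and 0.79 and 1.03 at P1, and its averaged call held under all alternatives run, at 0.64 (adjusted p = 5.0e-04) without the 4 arrays of raised background. The Itgb3 call was lost without the 4 arrays of raised background (0.46, adjusted p = 0.055) and with the background covariate (0.50, adjusted p = 0.094).

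In Efemp2 the range of Itgb3 was 6.58, 7.20 and 7.65 in WT and 7.15, 7.39 and 8.18 in KO. That of Itgb5 was 7.63, 8.70 and 9.27 in WT and 8.34, 8.85 and 9.32 in KO. Averaged Efemp2 effects were 0.33 ± 0.13 for Itgb3 (adjusted p = 0.17) and 0.32 ± 0.097 for Itgb5 (adjusted p = 0.057). Neither passed as averages. Itgb5 passed in DA at P1 (0.73, adjusted p = 0.049), a call lost when any 1 of the 4 arrays of the pair was left out. In Lox the values were 6.45, 7.44 and 8.27 in WT and 6.37, 7.63 and 8.79 in KO for Itgb3. For Itgb5 they were 7.95, 8.80 and 9.85 in WT and 8.16, 9.16 and 10.09 in KO. Averaged Lox effects were 0.21 ± 0.13 and 0.28 ± 0.097, with adjusted p of 0.46 and 0.16.

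Itgb1, the beta chain shared by the alpha chains above, passed the test in no averaged comparison. The lowest, median and highest of 8 arrays were 9.71, 9.94 and 10.09 in WT and 9.68, 10.07 and 10.29 in KO for Eln. They were 9.19, 10.10 and 10.39 in WT and 9.83, 10.22 and 10.45 in KO for Efemp2. They were 9.48, 10.40 and 11.47 in WT and 9.72, 10.42 and 11.38 in KO for Lox. The averaged effects were 0.14 ± 0.098, 0.27 ± 0.098 and 0.0044 ± 0.098 in Eln, Efemp2 and Lox (adjusted p = 0.53, 0.13 and 0.99), with 95% intervals of -0.058 to 0.34, 0.071 to 0.47 and -0.19 to 0.20. Without replicate 2 of Efemp2 WT AA P1 the Efemp2 value was 0.34 and passed (adjusted p = 0.047). In Eln DA at P1 the effect of 0.13 became -0.26 with cyclic loess.

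Itga7, the laminin receptor chain of muscle, did not pass in any averaged comparison either. Its lowest, median and highest values were 5.38, 6.04 and 6.44 in WT and 5.69, 6.10 and 6.65 in KO for Eln. They were 5.27, 6.00 and 6.45 in WT and 5.77, 6.00 and 6.27 in KO for Efemp2. They were 4.66, 5.91 and 7.04 in WT and 4.77, 5.64 and 6.82 in KO for Lox. Averaged effects were 0.20 ± 0.12, 0.076 ± 0.12 and -0.15 ± 0.12, with adjusted p of 0.44, 0.81 and 0.60. In Eln the 4 pairs did not share a sign, with -0.35 in DA at E17.5 and 0.68 in DA at P1. The latter passed (adjusted p = 0.034) and was lost without replicate 1 of Eln WT DA P1 (0.25, adjusted p = 0.52), without replicate 1 of Eln KO DA P1 (0.50, adjusted p = 0.19), with cyclic loess (0.29, adjusted p = 0.45) and with the background covariate (0.46, adjusted p = 0.59).

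**Figure D3:**
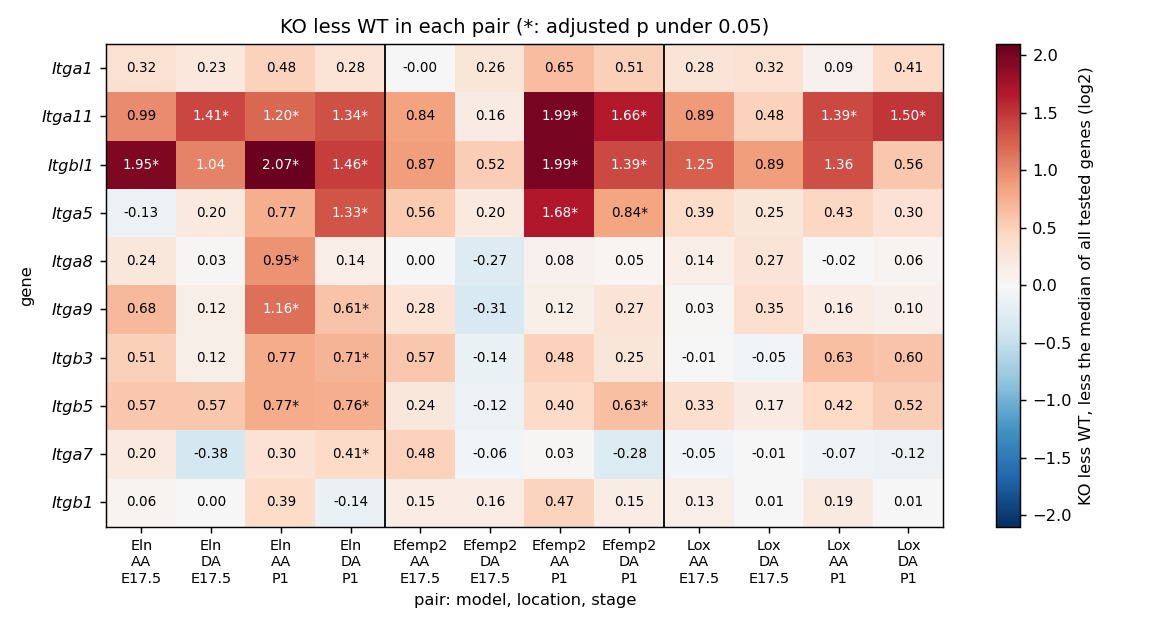
KO less WT (log2, after subtracting the pair's median over tested genes) of each gene (rows) in the 12 pairs (columns); red is higher and blue lower in KO, and an asterisk marks an adjusted p under 0.05. Asterisks gather at P1 (21 of 23), and the rows of Itga11 and Itgbl1 are positive throughout.

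In single pairs, more members passed at P1 than at E17.5 in each model. At E17.5 in Eln, 1 of 10 rose in AA (Itgbl1) and 1 in DA (Itga11), against 0.0391% and 0.0326% of all tested genes. At P1 in Eln, 5 rose in AA and 7 in DA, against 1.15% and 19.8%. In Efemp2 at E17.5 no member passed, against 0.548% of all genes in AA and 0.0391% in DA, with 4 and 0 members at an unadjusted p under 0.05. At P1 in Efemp2, 3 rose in AA and 4 in DA, against 3.03% and 1.28%. In Lox at E17.5 no member passed, against 0.013% and 0.00652%, with 2 and 1 members at an unadjusted p under 0.05. At P1 in Lox, Itga11 alone rose in AA and in DA, against 0.17% and 0.104%. The median effect of all genes was 0.27 in Eln DA P1, -0.20 in Lox AA P1, -0.17 in Lox DA P1 and within 0.1 of 0 in the other pairs. Of the 23 calls in single pairs, 6 held under all alternatives run. These were Itga9 and Itgbl1 in Eln AA P1, Itga5, Itga11 and Itgbl1 in Efemp2 AA P1, and Itga11 in Efemp2 DA P1.

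The arrays were also compared without a model. Both KO arrays lay above both WT arrays for 8 of 10 members in Eln AA E17.5, 8 in Eln DA E17.5, 10 in Eln AA P1 and 9 in Eln DA P1. Over all tested genes this held for 15.2%, 25.8%, 21.4% and 38.7%. For Efemp2 at E17.5 the counts were 5 members (AA) and 4 (DA), against 14.9% and 16.6% of genes, and at P1 they were 9 and 6, against 27.6% and 26.4%. In Lox it held for 5 and 8 at E17.5, against 15% and 25.6%, and for 4 and 4 at P1, against 8.33% and 7.6%. Both KO arrays lay below both WT arrays for 1 member in each of 5 pairs: Itga7 in Eln DA E17.5, Efemp2 DA P1, Lox AA E17.5 and Lox DA P1, and Itga8 in Lox AA P1. That held for 17.6%, 12%, 15.1%, 44.7% and 54.6% of all genes in those pairs.

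Stage, location and model differences of the effects were tested for each member. For P1 less E17.5, 1 member passed in Eln (Itga5), 2 in Efemp2 (Itga5 and Itga11) and 0 in Lox, against 0.567%, 1.33% and 0.0978% of all genes. The median stage difference of all genes was 0.14, 0.10 and -0.20, and that of the members 0.49, 0.43 and -0.22. In Lox, limma gave 2 members an unadjusted p under 0.05. For DA less AA no member passed in any model, against 5.24% of genes in Eln, 0% in Efemp2 and 0% in Lox, and the median of all genes in Eln was 0.18. Unadjusted p fell under 0.05 for 1, 1 and 0 members. With cyclic loess Itga8 passed in Eln (-0.56, adjusted p = 0.048). The interval for Itgbl1 was -1.30 to 0.099 in Eln, so the design could not show whether its effect was alike in both locations.

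For effects between models, Itga9 alone passed in Efemp2 less Eln and in Lox less Eln, against 0.554% and 0.509% of all genes. No member passed in Lox less Efemp2, against 0.0261% of genes, and Itga5 alone had an unadjusted p under 0.05. The median difference of all genes was -0.017, -0.14 and -0.13 in these comparisons. The Lox effect less the Eln effect on Itga11 was -0.32 ± 0.19, with a 95% interval of -0.70 to 0.071. For Itgbl1 it was -0.76 ± 0.24, with a 95% interval of -1.26 to -0.27 and an adjusted p of 0.15.

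In WT aorta, Itga11, Itgbl1 and Itga1 were higher in DA than in AA, and Itgb5 was lower. Averaged over the 6 WT pairs of AA and DA, DA less AA was 1.34 ± 0.14 for Itgbl1 (adjusted p = 3.9e-08), 1.04 ± 0.11 for Itga11 (adjusted p = 4.7e-08) and 0.40 ± 0.090 for Itga1 (adjusted p = 0.0031). Over all tested genes 4.64% were higher and 3.96% lower. Some of the WT AA values of Itga11 lay close to the array background, as given above. For these 3 genes DA exceeded AA in 6 of 6 WT pairs, by 0.89 to 1.56, 0.81 to 1.45 and 0.31 to 0.46. KO pairs had the same sign in 6 of 6, at 0.53 to 1.05, 0.59 to 1.30 and 0.33 to 0.80. Itgb5 was at -0.26 ± 0.080 (adjusted p = 0.039), a call lost in 14 of 24 fits that left out 1 array, without the 4 arrays of raised background (-0.26, adjusted p = 0.081), with cyclic loess (-0.20, adjusted p = 0.12), with no filter and with the background covariate. The other 6 members did not pass, and Itga5 stood at -0.089 ± 0.090 with WT pairs from -1.15 to 0.28, the lowest in Eln at P1. Neuron and Schwann cell markers moved with this comparison: 4 of 5 tested were higher in DA, and the list mean lay at 4.48 to 5.54 in the 6 WT AA groups and at 5.02 to 7.0045 in the 6 WT DA groups. Other marker lists moved as well. Of 8 endothelial markers 2 were higher in DA (Kdr and Vwf), with list means of 6.60 to 8.61 in AA and 7.09 to 9.09 in DA, and of 7 macrophage markers 2 (Adgre1 and Mrc1), with 5.40 to 7.87 and 5.86 to 8.20. Of 8 smooth muscle markers Myh11 was higher and Lmod1 and Myocd lower, with 8.36 to 10.11 and 8.26 to 10.19. Pf4 (platelet), Fabp4 (brown fat) and Myh6 (heart muscle) were higher, and Myh7 (heart muscle), Acan (cartilage) and Dpt (fibroblast) lower. Their part in the result was not tested. Over the 5 pairs left without the 4 arrays of raised background, the difference was 1.19 (adjusted p = 2.9e-08) for Itga11, 1.51 (adjusted p = 3.1e-07) for Itgbl1 and 0.32 (adjusted p = 0.018) for Itga1.

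**Figure D4:**
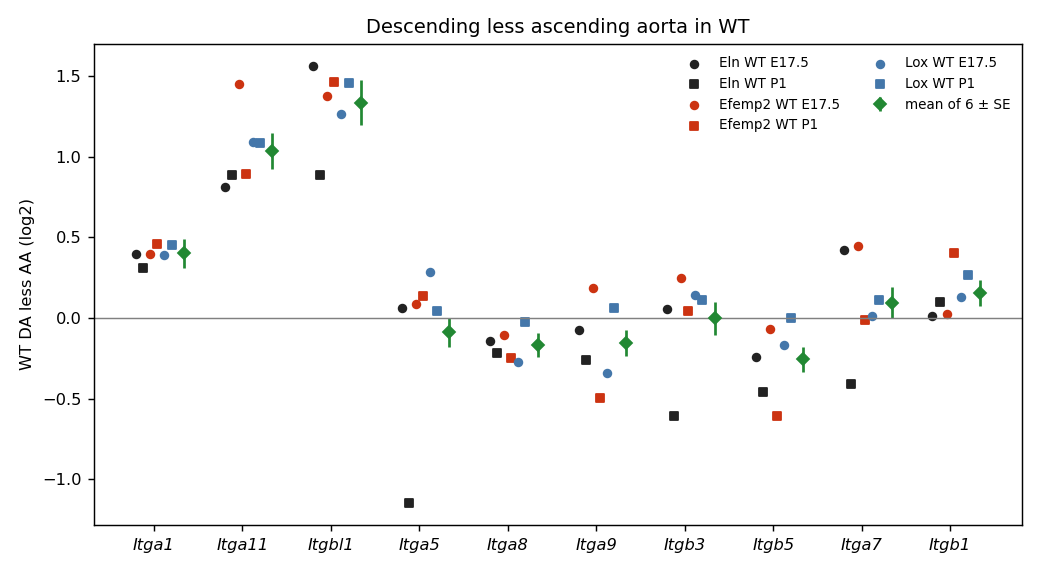
DA less AA (log2, vertical axis) in WT for each gene (horizontal axis); black, red and blue points are the Eln, Efemp2 and Lox models, circles E17.5 and squares P1, and green diamonds the mean of 6 pairs ± SE. All 6 points of Itga1, Itga11 and Itgbl1 lie above 0, and the Itga5 point at -1.15 is Eln at P1.

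Of 12 other integrin subunits tested, 1 rose in Eln, 4 in Efemp2 and 1 in Lox, and none fell. For this list and those below, 2.74%, 3.14% and 0.561% of all tested genes rose in Eln, Efemp2 and Lox. The shares that fell were 0.541%, 0.665% and 1%. Their median effects were 0.19, 0.27 and 0.066. Itgav, the alpha partner of Itgb3 and Itgb5, rose in Eln (0.39 ± 0.11, adjusted p = 0.036) and Efemp2 (0.56 ± 0.11, adjusted p = 0.0012) and stood at 0.17 ± 0.11 in Lox. Its Eln call was lost in 16 of 24 alternatives, the fit without the 4 arrays of raised background among them. The leukocyte chains Itgam and Itgb2 rose in Efemp2, by 1.33 ± 0.16 and 0.83 ± 0.15. Itga4, a chain that binds fibronectin and Vcam, rose in Lox, by 0.71 ± 0.12. Macrophage markers moved with the Efemp2 comparison: 4 of 7 rose (Adgre1, Lyz2, Cd68 and Itgam, which both lists hold), and the list mean was 6.45 to 7.13 in the 4 WT groups and 7.54 to 7.78 in the 4 KO groups. In Eln 0 of 7 changed and in Lox 1 rose. The part of these cells in the result was not tested.

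Collagen and laminin ligands are given beside the 2.74%, 3.14% and 0.561% of all tested genes that rose in Eln, Efemp2 and Lox. Of 11 collagen genes tested, 1 rose in Eln, 2 in Efemp2 and 1 in Lox, with medians of 0.15, 0.31 and 0.030. Col11a1, a fibrillar collagen chain best known from cartilage, rose by 1.07 ± 0.13, 1.41 ± 0.13 and 1.09 ± 0.13 in Eln, Efemp2 and Lox. Cartilage markers also moved, with 2 of 4 higher in Eln KO (Acan and Hapln1), 1 in Efemp2 KO (Acan) and 0 in Lox KO, and their part in the result was not tested. Col4a2, a basement membrane chain, rose in Efemp2 (0.46 ± 0.13, adjusted p = 0.035), a call lost in 16 of 24 alternatives. Of 9 laminin chains tested, 3 rose in Eln, 1 in Efemp2 and 0 in Lox. Lama1 rose by 0.65 ± 0.10, Lamc3 by 0.48 ± 0.12 and Lamc1 by 0.37 ± 0.11 in Eln, and Lamb1 by 0.30 ± 0.083 in Efemp2. The Lama1 call held under the alternatives run. The calls of Lamc3, Lamc1 and Lamb1 were lost without the 4 arrays of raised background, among other settings.

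The list of ligands of the fibronectin, vitronectin and tenascin type also held matricellular genes. Like the other lists it was drawn up with earlier results of these data known, so its counts do not rank ligand types. Of 14 tested, 8 rose in Eln, 6 in Efemp2 and 3 in Lox, where 1 fell, with medians of 0.49, 0.26 and 0.11. Under the alternatives other than leaving out 1 array, the count ran from 3 to 8 in Eln, 3 to 6 in Efemp2 and 2 to 3 in Lox. Thbs1 (thrombospondin-1) rose by 0.96 ± 0.17 in Eln, 2.06 ± 0.17 in Efemp2 and 1.41 ± 0.17 in Lox. The matricellular gene Ccn2 rose by 1.11 ± 0.14, 1.14 ± 0.14 and 0.83 ± 0.14. Its relative Ccn1 rose in Efemp2 and Lox, by 1.16 ± 0.24 and 0.97 ± 0.24, and stood at 0.65 ± 0.24 in Eln (adjusted p = 0.14). Tnc, the tenascin-C gene, rose by 0.67 ± 0.11 in Eln and 0.41 ± 0.11 in Efemp2, and stood at 0.19 ± 0.11 in Lox. Fn1 (fibronectin) and Vtn (vitronectin) were named after their values were seen. Fn1 rose by 0.52 ± 0.099 in Eln and 0.52 ± 0.099 in Efemp2, and stood at 0.25 ± 0.099 in Lox. Its Eln call was lost with the background covariate (adjusted p = 0.068). Vtn passed in no model, at 0.30, 0.076 and 0.11 in Eln, Efemp2 and Lox. The Efemp2 call of Tnc was lost in 10 of 24 alternatives and the Lox call of Ccn1 in 10 of 24. Npnt, which encodes nephronectin and was named after its values were seen, fell in Lox by 0.55 (adjusted p = 0.039), a call lost in 12 of 24.

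Of 16 adhesion adaptors tested, 5 rose in Eln, 2 in Efemp2 and 0 in Lox, with medians of 0.23, 0.15 and 0.022. With the settings other than leaving out 1 array the Eln count ran from 0 to 5. Actn1 (alpha-actinin) rose by 0.58 ± 0.11 in Eln and 0.39 ± 0.11 in Efemp2. Tns1 (tensin) and Bcar1 (a scaffold of focal adhesions) rose in Eln, by 0.56 ± 0.11 and 0.50 ± 0.14. Fermt3, the kindlin of blood cells, rose in Efemp2 by 0.68 ± 0.14, beside the macrophage markers given above. The calls of Bcar1 in Eln and Actn1 in Efemp2 were lost in 17 and 14 of 24 alternatives.

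Of 11 other receptors listed, most of them for matrix and none an integrin, 2 rose and 1 fell in Eln, and 1 fell in Efemp2 and in Lox. Dag1 (dystroglycan, a laminin receptor) and Sdc2 (a syndecan) rose in Eln, by 0.64 ± 0.13 and 0.38 ± 0.11. Cd36, a scavenger receptor that binds thrombospondin, fell in Eln by 1.04 ± 0.27. Cdh13 (T-cadherin, a cadherin rather than a matrix receptor) was the gene that fell in Efemp2, by 0.36, and in Lox, by 0.57, each ± 0.10. The Efemp2 call of Cdh13 was lost in 14 of 24 alternatives and the Eln calls of Sdc2, Cd36 and Dag1 in 18, 9 and 2. Endothelial markers also moved: 1 of 8 fell in Eln (Emcn) and 3 in Efemp2 (Emcn, Cldn5 and Cdh5), and their list mean was 7.31 to 8.35 in Efemp2 WT and 6.52 to 7.95 in Efemp2 KO. Of 7 fibroblast markers 1 rose (Pi16) and 3 fell (Dpt, Lum and Dcn) in Eln, 1 fell in Efemp2 (Dpt, -0.58 ± 0.13, adjusted p = 0.0047) and 0 changed in Lox. Their list mean was 8.92 to 9.36 in Efemp2 WT and 9.01 to 9.15 in Efemp2 KO. Of smooth muscle markers 1 of 8 rose in Eln (Smtn) and 0 in the others. Averaged Eln effects of these 8 were all positive, from 0.082 (Des) to 0.60 (Smtn). The smooth muscle list mean was 8.83 to 9.38 in Eln WT and 9.20 to 9.80 in Eln KO. In Efemp2 it was 8.89 to 9.39 in WT and 9.19 to 9.48 in KO, and in Lox 8.26 to 10.19 and 8.39 to 10.16. Of neuron and Schwann cell markers 2 of 5 rose in Eln, with list means of 4.94 to 6.02 in WT and 5.26 to 7.10 in KO. Of brown fat markers 2 of 5 fell in Eln, 1 in Lox and none in Efemp2. At P1 the median effect of the brown fat list, less that of all genes, was low in each model. It was -1.50 in AA and -0.56 in DA in Eln, -0.78 and -1.31 in Efemp2, and -1.15 and -0.86 in Lox. At E17.5 it lay between -0.43 and -0.070. Of platelet markers 1 of 4 rose in Efemp2 (Pf4). The part of these cells in the integrin results was not tested.

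Genes with the pattern most like that of Itga11 over the 12 pair effects were Calr, Specc1 and Ppard, with Pearson r of 0.90, 0.90 and 0.89. For Itgbl1 they were Gm128, Epn2 and Ankrd33b, with r of 0.88, 0.87 and 0.87. Their averaged effects were smaller, from -0.047 to 0.46 for the first 3 and from -0.083 to 0.27 for the others. Among the members, Itga8 and Itga9 were the most alike (r = 0.92). These 12 effects come from 12 pairs of 4 arrays each, and they share the normalization and background of those arrays. The values are a description.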

How the data were processed

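RNA of 48 pools of mouse aorta was amplified from 5 ng with NuGEN Ovation Pico WTA and hybridised to 1-colour arrays, per the labels' protocols. The authors deposited log2 values made with RMA in Affymetrix Expression Console, per the submitters' processing notes. Versions, the array type and the sets in which arrays were normalized are not given in the sources used here, so stages were compared only as differences of KO less WT. Of 41345 probe sets, 23521 named 1 gene, 1814 several and 16010 none, from the platform annotation. The probe set with the highest mean stood for each of 22180 genes, and 15337 genes with a group mean of at least 4.94, the median of single-gene probe sets, were tested.

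A limma 3.58.1 fit (R 4.3.3, statmod 1.5.0) gave each of the 24 groups a mean over all 48 arrays, with 24 residual degrees of freedom and Benjamini-Hochberg adjustment over the 15337 genes. It was tested on simulated data. The members and gene lists were chosen with earlier results of these data known. Up to 4 genes of each pathway list were named, by the number of averaged comparisons passed and then by size. Npnt, Fn1 and Vtn were named beyond these. Genes most like Itga11 and Itgbl1 were the 3 with the highest r. Alternatives were no filter, cyclic loess, trended robust variances, replicate blocks, leaving out the 4 arrays of raised background, only the arrays of 1 model, a background covariate (each array's median over 1394 genes for olfactory or vomeronasal receptors), and each array left out. By the measure of that covariate Efemp2 WT AA P1 replicate 1, not among the 4 arrays, stood at 3.11. Eln WT DA P1 replicate 2, which was among them, also stood at 3.11. Sequences came from RefSeq GRCm38.p6. Array coordinates were not used here.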

Additional observations from a re-analysis of the deposited data

Results flagged for a closer look

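The effect on Itga9 differed between models by a test of the difference itself. The Efemp2 effect less the Eln effect was -0.58, and the Lox effect less the Eln effect was -0.63, or -0.49 less the median of all genes. For Itga9, the Eln effect alone passed as an average. In the Lox comparison, model and strain cannot be told apart.

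Effects on Itga5 and Itga11 differed between stages by a test of the difference, P1 less E17.5. For Itga5 it was 1.17 in Eln and 0.98 in Efemp2. For Itga11 it was 1.43 in Efemp2. Each of these 5 differences was lost under some alternatives, and the cause was not tested.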

How the results depend on the processing

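Over the averaged comparisons, the differences between effects and the WT comparison, 3560 member values were recomputed under alternatives. Of these, 3431 kept their side of the threshold, 113 lost a call, 16 gained one and 0 called values changed sign. In single pairs, 874 of 950 were kept, 64 lost and 12 gained, with 0 called values reversed. Most of the recomputed values, in both sets, had not passed in the main fit, so the kept counts say little about the calls. Of the 23 calls in single pairs, 6 held under all alternatives run. Values that passed in neither fit could change sign and still count as kept. With cyclic loess, for example, the Itgb5 location difference in Eln went from 0.16 to -0.15. Without the 4 arrays of raised background, and with the background covariate, 5 members passed in Eln instead of 8, and 7 with no filter, cyclic loess or the Eln arrays alone, each without Itga1. In Efemp2 3 passed instead of 4, again without Itga1, with no filter, cyclic loess, the covariate, the Efemp2 arrays alone and without the 4 arrays, and 5 with trended robust variances or the replicate block. For WT DA less AA 3 passed instead of 4, without Itgb5, with no filter, cyclic loess, the covariate and without the 4 arrays. For Efemp2 less Eln the count went from 1 to 0 with no filter, cyclic loess, the fixed replicate block, and without those 4 arrays. For Lox less Eln it went from 1 to 0 with cyclic loess and without those arrays. The stage difference fell from 1 to 0 in Eln with cyclic loess and the covariate, and in Efemp2 from 2 to 0 with cyclic loess and to 1 without those arrays. The location difference in Eln went from 0 to 1 with cyclic loess. The cause was not tested. With each array left out in turn, member counts ran from 7 to 8 in Eln, 3 to 5 in Efemp2 and 2 to 2 in Lox, from 3 to 4 for WT DA less AA, from 0 to 1 for Efemp2 less Eln, Lox less Eln and the Eln location difference, and from 0 to 3 for the Eln and Efemp2 stage differences. They stayed at 0 in the remaining comparisons. Where a group was left with 1 array, that array was assumed to vary like the others.

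Calls over all genes moved more. As deposited they numbered 504 in Eln, 584 in Efemp2 and 240 in Lox, and under the settings other than leaving out 1 array they ran from 218 to 547, 196 to 664 and 185 to 767. The stage difference had 87, 204 and 15 calls, with ranges of 1 to 146, 0 to 231 and 6 to 126, and the Eln location difference 804, with 21 to 1279. Efemp2 less Eln had 85 (52 to 123), Lox less Eln 78 (12 to 93), Lox less Efemp2 4 (2 to 33), and WT DA less AA 1318 (1086 to 1443). With 1 array left out, these ran from 331 to 872 in Eln, 366 to 860 in Efemp2, 127 to 313 in Lox and 1010 to 2223 for WT DA less AA.

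The labels number the replicates but do not say that equal numbers belong together. Of 6 pairs of groups in each model and stage, 0 to 2 had deviations that correlated over 0.1. The highest r of a model and stage ran from 0.042 (Lox E17.5) to 0.36 (Eln P1). This check cannot tell whether some groups, such as AA and DA of 1 genotype, were paired. With the replicate block, fixed or random (consensus correlation 0.025), 8 members passed in Eln, 5 in Efemp2 (Itgb5 added, adjusted p = 0.041 and 0.049) and 2 in Lox, and 4 for WT DA less AA. Without the 4 arrays of raised background no WT array of Eln DA P1 was left, so Eln was averaged over 3 pairs, WT DA less AA over 5, and the Eln DA P1 pair and the Eln stage and location differences could not be fitted. Each member had 1 probe set of its own, so another probe set could not be tried. The number of arrays, 2 in a group, limits single pairs most.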
